A study of Homo sapiens with 12 samples.

Results

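The comparison of TGF-β1 with control in A549 cells is described here across all genes, using 8 of the 12 libraries of the study: the 4 control libraries and the 4 TGF-β1 libraries. A549 is a human lung adenocarcinoma line that grows as an epithelial sheet. The study had 3 groups of 4 samples, all A549 at passages 5 to 10 in Ham's F-12K medium with 10% serum. For the control cells the labels name no agent, the TGF-β1 cells received 10 ng/mL of TGF-β1, and the treatment lasted 2 days. The third group, which also received 40 mM sodium acetate, is not described. A549 is 1 tumour line in culture, and the labels do not say whether the 4 samples of a group were separate cultures, so the p-values below rest on a spread between libraries that may be technical.

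The libraries were stranded, made from total RNA after removal of ribosomal RNA, and read from both ends. The count columns carry codes (S1 to S4 and S15 to S18) that match no sample label. S1 to S4 were taken as control and S15 to S18 as TGF-β1 from the tables that hold them and the names of those tables, and a wrong table name would change the comparison. Library totals were 38400896 to 53055990 counts in control and 37202599 to 53936023 with TGF-β1, so that 3 counts, used here as the floor, equalled 0.0551 to 0.0839 CPM (the usual depth-scaled count, here with adjusted library totals). The floor covers counting error only. Of 24459 genes in the table, 22051 had enough counts to be tested. A gene is said to have risen or fallen where its adjusted p in edgeR's quasi-likelihood test was below 0.05; folds are log2, TGF-β1 minus control, and levels are CPM, as mean ± SD (n = 4) where an error is given.

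TGF-β1 is secreted bound to a latency peptide and, once freed, brings together a type II and a type I receptor kinase. The receptors phosphorylate SMAD2 and SMAD3, which enter the nucleus with SMAD4 and act with other transcription factors. In epithelial cells of the lung this pathway is known for epithelial to mesenchymal transition (EMT), in which cells lose E-cadherin junctions and make matrix, and for feedback through inhibitory SMADs and receptor ubiquitination.

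Most expressed genes differed between the groups, and most differences were small. Of the 22051 genes, 66.9% passed the test, 34.1% (7518) higher and 32.8% (7224) lower with TGF-β1, and the groups of 4 libraries were without overlap in 61.4%. The median size of the log2 fold change was 0.36, and 67.3% of genes lay within 1.5-fold of no change. A test against a 2-fold change (edgeR glmTreat) called 6.17% of genes higher (1360) and 6.05% lower (1333). Protein-coding genes were balanced, with 5481 of 14551 higher and 5463 lower. Among 4584 long noncoding RNA genes 1217 rose and 1240 fell, and among 1808 pseudogenes 462 rose and 353 fell. A share of 41.2% of the calls, in place of 51.0%, was higher when libraries were scaled by their total counts, which moved the median log2 fold change of all genes by -0.10.

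The 957 protein-coding genes that passed the 2-fold test upward held 2.65 ± 0.0622% of protein-coding TPM (the count per gene length, scaled to the library) in control and 9.60 ± 0.0640% with TGF-β1, and the 983 that passed downward held 7.80 ± 0.0826% and 2.05 ± 0.0533%. These genes were picked by their change, so the shares describe its size and test nothing. In TPM the larger gains of protein-coding genes included those of the matrix protein gene TGFBI (292 to 3205 TPM), the retinal dehydrogenase gene ALDH1A1 (5384 to 8102 TPM) and the actin-binding peptide gene TMSB10 (2016 to 4082 TPM). The genes of both non-muscle actins also gained, ACTG1 from 1217 to 2625 TPM and ACTB from 1186 to 2089 TPM. The largest losses in TPM were those of the ferritin light chain gene FTL (11752 to 6722 TPM) and the aldo-keto reductase gene AKR1B10 (3432 to 258 TPM), followed by linker and core histone genes. Copies of the histone genes and processed pseudogenes of the actin and ferritin genes can share reads, so their own levels are uncertain.

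**Figure D1:**
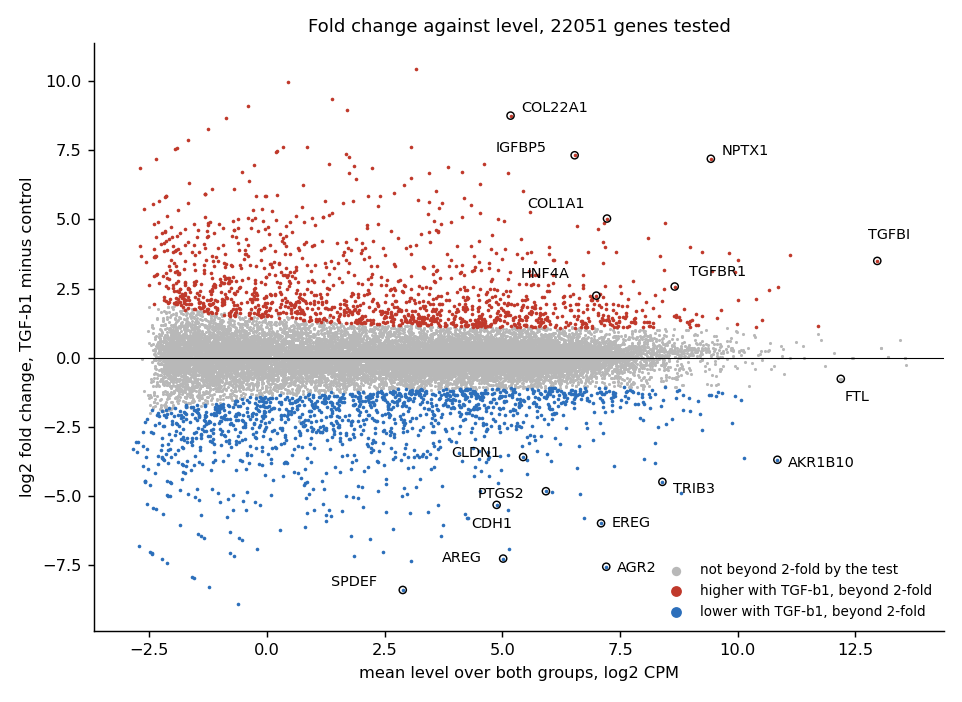
Log2 fold change (y axis, TGF-b1 minus control) against the mean level of both groups (x axis, log2 CPM) for each of the 22051 genes tested; red and blue points passed the test against a 2-fold change. Points lay far from 0 in both directions; among the genes marked by name are COL22A1 (8.75), NPTX1 (7.19), AGR2 (-7.56) and AREG (-7.26), which are not the extremes of all genes.

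Some genes were near or under detection in one group. In every control library 66 protein-coding genes had 3 or fewer counts, of which 39 were tested and 14 averaged 1 CPM or more with TGF-β1. In the other direction 87 genes had 3 or fewer counts in every TGF-β1 library, of which 50 were tested and 13 averaged 1 CPM or more in control. LCE3D, a gene of the cornified envelope of skin, had 2 counts over the control libraries and 3007 over the TGF-β1 libraries, a ratio of 1712 (95% exact interval 474 to 14145, counting error only). LEFTY2, a secreted antagonist of NODAL signalling, had 0 counts in control and 465 with TGF-β1, at least 43.3-fold higher against the floor of 3 counts per library. MEDAG, a gene of adipocyte differentiation, had 2 and 1107 counts. SPDEF, an ETS factor of goblet cells, stood at 14.6, 14.7, 14.3 and 15.2 CPM in S1 to S4 and 0.0723, 0, 0.0387 and 0.0477 CPM in S15 to S18, a ratio of control to TGF-β1 of 360 (174 to 896). FUT1, the fucosyltransferase of the H antigen, fell from 7.09 ± 0.63 to 0.0464 ± 0.0317 CPM. The genes named here were picked for few counts in one group and a high level in the other. Their ratios and intervals describe the size of the change and test nothing. Those tested had enough counts only through the group where they were high.

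Among protein-coding genes of at least median level and with separate groups, 10 in each direction had the largest changes. Upward these were COL22A1, IGFBP5, NPTX1, WNT5B, VSTM4, CGB8, RET, IGFL1, R3HDML and CDH11, with log2 fold changes from 6.04 to 8.75. RET encodes the receptor tyrosine kinase of the glial-derived neurotrophic factors, and it was at 0.72, 0.499, 0.674 and 0.753 CPM in S1 to S4 and 68.8, 69.6, 67.9 and 67.4 CPM in S15 to S18. IGFBP5, which binds insulin-like growth factors outside the cell, was at 1.08, 1.32, 1.2 and 1.03 CPM in S1 to S4 and 183, 184, 183 and 186 CPM in S15 to S18. All 4 TGF-β1 libraries lay far above all 4 control libraries for both genes. CGB8 has near-identical copies, so its level is uncertain. Downward the 10 genes were AGR2, AREG, FGA, MUC5B, CYP4F3, EREG, PPFIBP2, GPX2, PDK4 and FGG, from -5.66 to -7.56. PPFIBP2, a liprin scaffold protein gene, was at 39.3, 36.5, 37 and 37.6 CPM in S1 to S4 and 0.626, 0.559, 0.774 and 0.691 CPM in S15 to S18, without overlap.

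**Figure D2:**
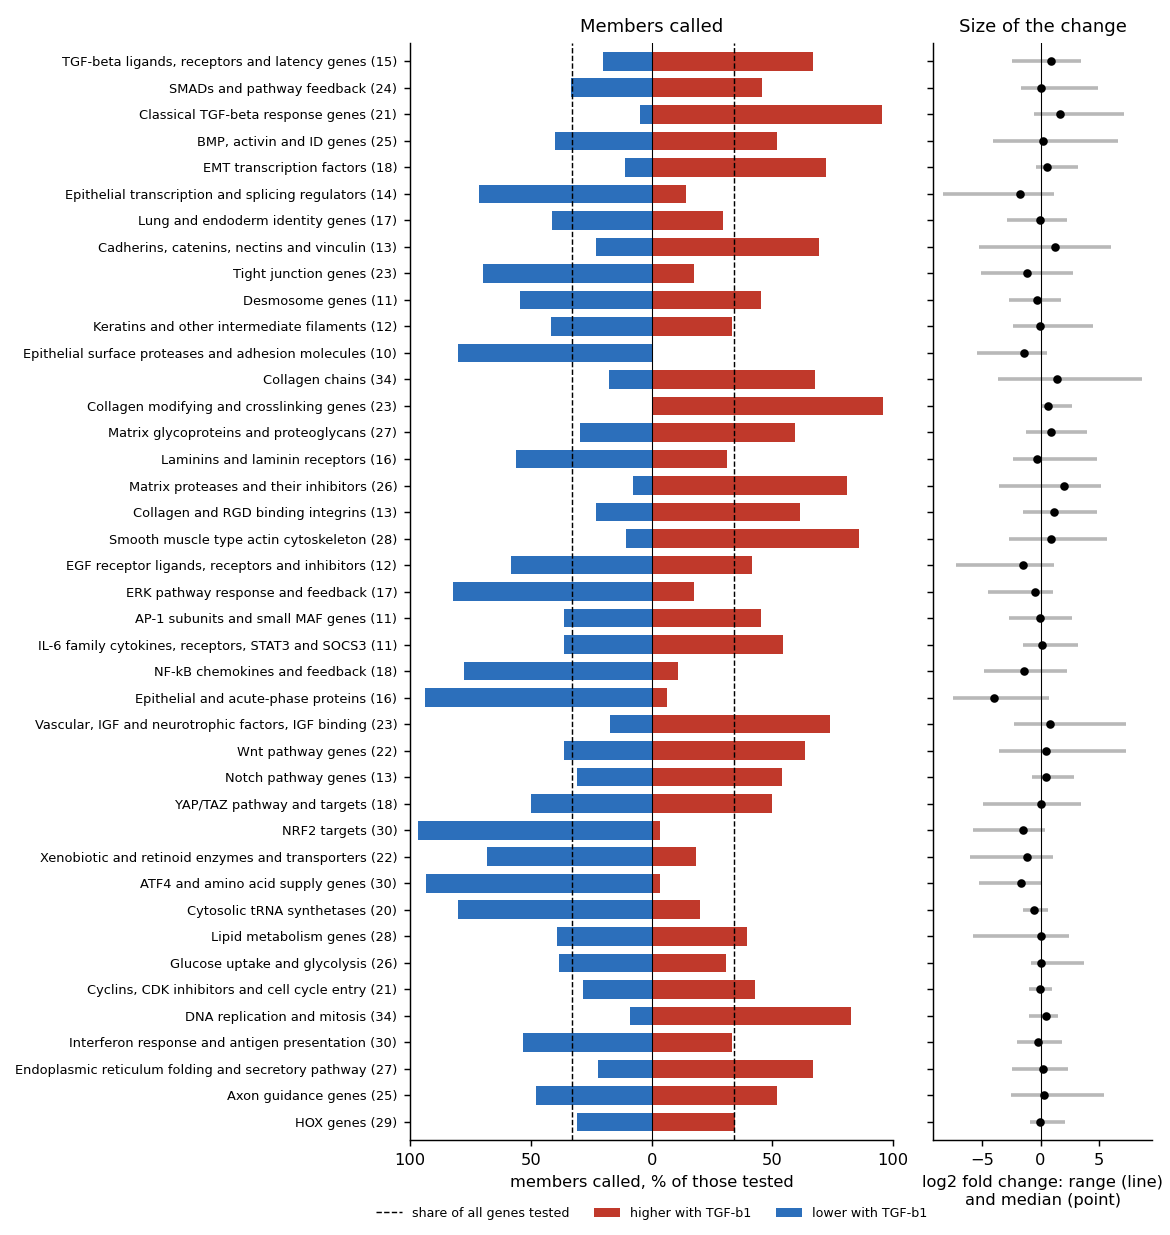
The 41 gene lists, with the number of members tested in brackets. Left, members higher (red) and lower (blue) as a percent of those tested, with the shares of all genes as dashed lines at 34.1% and 32.8%; right, the range (line) and median (point) of the members' log2 fold changes. Collagen modifying enzymes and classical response genes were mostly higher, and NRF2 targets, ATF4 genes and epithelial and acute-phase proteins mostly lower.

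Components of the TGF-β pathway itself changed in both directions. Of 15 tested ligand, receptor and latency genes 10 rose and 3 fell (median log2 fold change 0.89, against 0.02 for all genes). All 3 ligand genes rose, TGFB1 by 0.80, TGFB2 by 1.23 and TGFB3 by 0.89. The latency protein genes LTBP1, LTBP2 and LTBP3 rose by 0.70, 1.60 and 1.86, as did THBS1 (3.52), whose product can free the ligand from its latency peptide. ITGB6, the β subunit of an integrin that activates latent TGF-β, rose from 11.2 ± 1.12 to 70.02 ± 2.11 CPM. ITGB8, another integrin β subunit gene of this list, fell (-0.80) and is named to complete the count of falls.

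The receptor genes moved apart. TGFBR1, the type I receptor (ENSG00000106799.12, chromosome 9, 99104038 to 99154192), was at 118, 120.5, 112 and 115 CPM in S1 to S4 and 709, 657, 694 and 709 CPM in S15 to S18. TGFBR2, the type II receptor (ENSG00000163513.17, chromosome 3, 30606502 to 30694142), was at 288, 271, 274 and 272 CPM in S1 to S4 and 116, 118, 118 and 120.5 CPM in S15 to S18. TGFBR1 was higher and TGFBR2 lower in every TGF-β1 library than in any control library, with log2 fold changes of 2.57 ± 0.039 (SE, edgeR quasi-likelihood adjusted p = 4.8e-18) and -1.22 ± 0.034 (edgeR adjusted p = 9.8e-15). TGFBR3, which encodes the co-receptor betaglycan, fell with TGFBR2, from 12.6 ± 0.668 to 2.33 ± 0.28 CPM.

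SMAD and feedback genes had 11 higher and 8 lower of 24 (45.8% and 33.3%, against 34.1% and 32.8% of all genes), with a median of 0.07. SMAD3, a receptor-regulated SMAD, fell (-1.36), the inhibitory SMAD7 rose (1.33), and SMAD6 did not pass (0.06). LDLRAD4, a membrane protein that keeps SMADs from the receptor, was at 1.54, 2.5, 2.15 and 2 CPM in S1 to S4 and 66, 60.02, 62.1 and 64 CPM in S15 to S18. The groups were more than an order of magnitude apart (log2 fold change 4.95, edgeR adjusted p = 1.2e-17). PMEPA1, another inhibitor of receptor SMADs, rose by 1.43, the co-repressor gene SKIL by 1.02 and the ubiquitin ligase gene SMURF2 by 0.81. NEDD4L, a ubiquitin ligase that turns over active SMADs, fell from 64.2 ± 2.49 to 19.8 ± 0.273 CPM, and the pseudoreceptor gene BAMBI fell by 0.26 on the log2 scale.

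Classical response genes, collected from known targets of the pathway, were higher in 20 of 21 instances and lower in 1 (median 1.67). The 1 that fell was TSC22D1 (-0.52), named because it stood alone. ANGPTL4, a secreted inhibitor of lipoprotein lipase (ENSG00000167772.11, chromosome 19, 8363289 to 8374373), was at 3.38, 5.21, 4.22 and 3.51 CPM in S1 to S4 and 70.6, 79.5, 79.4 and 88.4 CPM in S15 to S18. Every TGF-β1 library was above every control library. SPHK1, the kinase that makes sphingosine 1-phosphate, rose from 3.07 ± 0.304 to 39 ± 2.58 CPM. At the other end of the list LIF, CYR61 and VEGFA rose by only 0.22, 0.33 and 0.38.

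Among BMP, activin and ID genes 13 of 25 rose and 10 fell (52.0% and 40.0%, against 34.1% and 32.8% of all genes). Some paired members went opposite ways. INHBA, the βA subunit of activin, was at 0.08, 0.12, 0.025 and 0.0184 CPM in S1 to S4 and 6.94, 5.82, 6.89 and 6.77 CPM in S15 to S18, under the floor in S3 and S4 and above it in every TGF-β1 library. INHBB, the βB subunit, was at 21.4, 21.3, 23.6 and 21.6 CPM in S1 to S4 and 1.42, 1.34, 1.28 and 1.6 CPM in S15 to S18. The log2 fold changes were 6.68 and -3.96. BMP4 fell (-2.81) while BMP2 rose (1.00), and FST, which binds activins, fell (-2.12) while its relatives FSTL1 and FSTL3 rose (2.25 and 1.62). GDF15, a stress-induced member of the family, fell from 44.1 ± 5.49 to 2.54 ± 0.444 CPM. The ID genes encode inhibitors of helix-loop-helix factors; ID2 fell (-1.65), ID3 rose (0.75) and ID1 did not pass (-0.08).

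Transcription factors that drive EMT counted 13 rises against 2 falls of 18 (median 0.55), but by unequal amounts. SNAI1, the Snail zinc finger repressor, was at 2.36, 2.2, 1.92 and 3.09 CPM in S1 to S4 and 21.9, 24.4, 20.4 and 21.4 CPM in S15 to S18. SNAI2 was at 1.74, 1.16, 1.45 and 1.51 CPM in S1 to S4 and 7.32, 6.94, 7.22 and 7.49 CPM in S15 to S18. Neither gene overlapped between groups, and the log2 fold changes were 3.18 ± 0.10 (edgeR adjusted p = 6.3e-14) and 2.30 ± 0.11 (edgeR adjusted p = 7.3e-12). ZEB1 rose by 0.49, from 46.2 ± 0.453 to 64.8 ± 3.37 CPM, whereas ZEB2 (0.14) and TWIST1 (0.02) did not pass. RUNX1, TCF4 and SOX4 rose by 1.89, 1.93 and 1.51. ETS1 (-0.36) was among the 2 that fell; the count was 1 without S15 or without S17.

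Regulators of epithelial transcription and splicing were lower in 10 of 14 instances and higher in 2 (median -1.73). Among the ETS factor genes SPDEF fell as above, EHF from 40.2 ± 1.6 to 2.58 ± 0.288 CPM and ELF3 from 184 ± 4.66 to 35.4 ± 2.66 CPM. KLF5 and the RNA-binding protein gene RBM47 fell by 1.80 and 1.75 on the log2 scale. ESRP1, which keeps epithelial splice forms, was already low in control and fell from 0.777 ± 0.278 to 0.231 ± 0.065 CPM, and ESRP2 did not pass (0.02). The 2 that rose, named to complete the count, were GRHL1 (0.88) and TP63 (1.15).

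Lung and endoderm identity genes had no common direction, with 5 higher and 7 lower of 17. These shares (29.4% and 41.2%) were close to those over all genes (34.1% and 32.8%). HNF4A, a nuclear receptor of liver and gut epithelium, was at 45.5, 45.6, 43.6 and 43.1 CPM in S1 to S4 and 212, 222, 195 and 213 CPM in S15 to S18. FOXA2, a forkhead factor of the endoderm, was at 40.8, 37.1, 40.5 and 41.2 CPM in S1 to S4 and 7.4, 7.97, 7.1 and 8.92 CPM in S15 to S18. HNF4A was higher and FOXA2 lower in every TGF-β1 library. HNF4G fell (-2.87) although its relative HNF4A rose (2.24), SOX2 fell (-2.53) while SOX9 rose (1.04), and FOXA1 rose by 0.42. GATA6 (-0.08) and the lipid transporter gene ABCA3 (0.09) did not pass. Of 10 markers of alveolar type II cells 5, SFTPC and NKX2-1 among them, have no row in the table, and the summed level of the other 5 was 40.2 to 44.3 CPM in control and 42.6 to 47.6 CPM with TGF-β1, almost all of it ABCA3. All 15 A549 markers were present, at 21870 to 23070 summed CPM in control and 19490 to 20610 with TGF-β1, but 11 of them fell and 2 rose. ALDH1A1, which rose from 8715 ± 288 to 13514 ± 288 CPM, made up much of the sum in both groups, while AKR1C2, an aldo-keto reductase gene, fell from 2084 ± 53.7 to 167 ± 7.88 CPM.

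Adhesion genes showed a change of cadherin type. CDH1, E-cadherin (ENSG00000039068.18, chromosome 16, 68737225 to 68835548), was at 54.3, 60.9, 57.6 and 56.4 CPM in S1 to S4 and 0.867, 1.68, 1.68 and 1.48 CPM in S15 to S18. CDH2, N-cadherin, was at 122, 124, 118 and 121 CPM in S1 to S4 and 325, 323, 342 and 334 CPM in S15 to S18. CDH1 was lower and CDH2 higher in every TGF-β1 library, with log2 fold changes of -5.32 ± 0.10 and 1.45 ± 0.035 (edgeR adjusted p = 5.4e-17 and 1.4e-15). CDH6, CDH4 and CDH11, other cadherins of mesenchymal or neural tissue, rose by 3.26, 1.60 and 6.04. CTNNB1, β-catenin, rose from 303 ± 13.6 to 698 ± 9.26 CPM. Of 13 adherens junction genes, which are cadherins, catenins, nectins and the vinculin gene VCL, 9 rose and 3 fell; beside CDH1 the falls were NECTIN1 (-0.17) and NECTIN3 (-0.27), named to complete the count, and NECTIN1 lost its call without S16, S17 or S18.

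Tight junction genes counted 16 falls against 4 rises of 23 (median -1.14). The claudins, which form the paracellular seal, split. CLDN1 was at 86.4, 78.5, 78.3 and 77.3 CPM in S1 to S4 and 6.55, 6.43, 6.04 and 7.63 CPM in S15 to S18. CLDN4 was at 1.56, 1.6, 1.8 and 2.08 CPM in S1 to S4 and 11.1, 13.1, 12.2 and 12.8 CPM in S15 to S18. CLDN1 was thus lower and CLDN4 higher in every TGF-β1 library. OCLN (occludin), MARVELD2 (tricellulin) and the polarity genes PARD6B and CRB3 fell by 1.54, 1.59, 1.90 and 1.25 on the log2 scale. The scaffold gene TJP3 fell from 7.39 ± 0.19 to 0.216 ± 0.0512 CPM, while TJP1, the main scaffold ZO-1, did not pass (0.01).

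The promoter sequences from RefSeq (GRCh38.p14, 250 bases before the start, 12894 tested genes matched) were searched on both strands for CAGGTG, the E-box bound by ZEB and SNAI factors; 17.5% of all 35116 promoters and 20.8% of the tested genes matched hold it, as do 7 of 16 tight junction genes with an entry (CLDN18, CLDN7, CRB3, OCLN, PATJ, TJP1 and TJP3). These 7 include TJP1, which did not pass, and CLDN18, which rose. CRB3 is shown because it holds the most matches, 5 in 250 bases (chr19:6464021-6464270, plus strand), with the E-boxes in capitals, CAGGTG or its reverse complement CACCTG:
CRB3: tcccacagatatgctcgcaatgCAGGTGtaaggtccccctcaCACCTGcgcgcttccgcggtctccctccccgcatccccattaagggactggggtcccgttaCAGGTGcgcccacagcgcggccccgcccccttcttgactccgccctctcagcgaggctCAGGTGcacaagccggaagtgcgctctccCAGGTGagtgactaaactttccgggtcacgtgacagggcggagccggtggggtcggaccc
A match is a description of the letters, not a bound site.

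Desmosome genes were divided, 5 higher and 6 lower of 11 (45.45% and 54.55%, against 34.1% and 32.8% of all genes). JUP, plakoglobin, and the desmosomal cadherin gene DSC2 rose (1.29 and 1.76), while the plakophilin genes PKP2 and PKP3 and the cornified envelope gene PPL fell (-1.83, -1.88 and -2.73). Of 12 intermediate filament genes 4 rose and 5 fell (33.3% and 41.7%), close to the shares over all genes (34.1% and 32.8%). KRT8 did not pass (2199 ± 75 to 2194 ± 111 CPM) and its partner KRT18 fell by 0.42 on the log2 scale. KRT19 fell further, from 35.8 ± 3.09 to 6.87 ± 0.63 CPM, and VIM, vimentin, rose from 814 ± 34.7 to 2097 ± 84.9 CPM. Epithelial surface proteases and adhesion genes had 8 falls and 0 rises among 10 genes tested, among them the adhesion gene CEACAM6 (-5.49) and the protease inhibitor gene SPINT2 (-1.04); ST14 (0.57) and PRSS8 (0.45), membrane proteases, were under 1 CPM in both groups and did not pass.

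**Figure D3:**
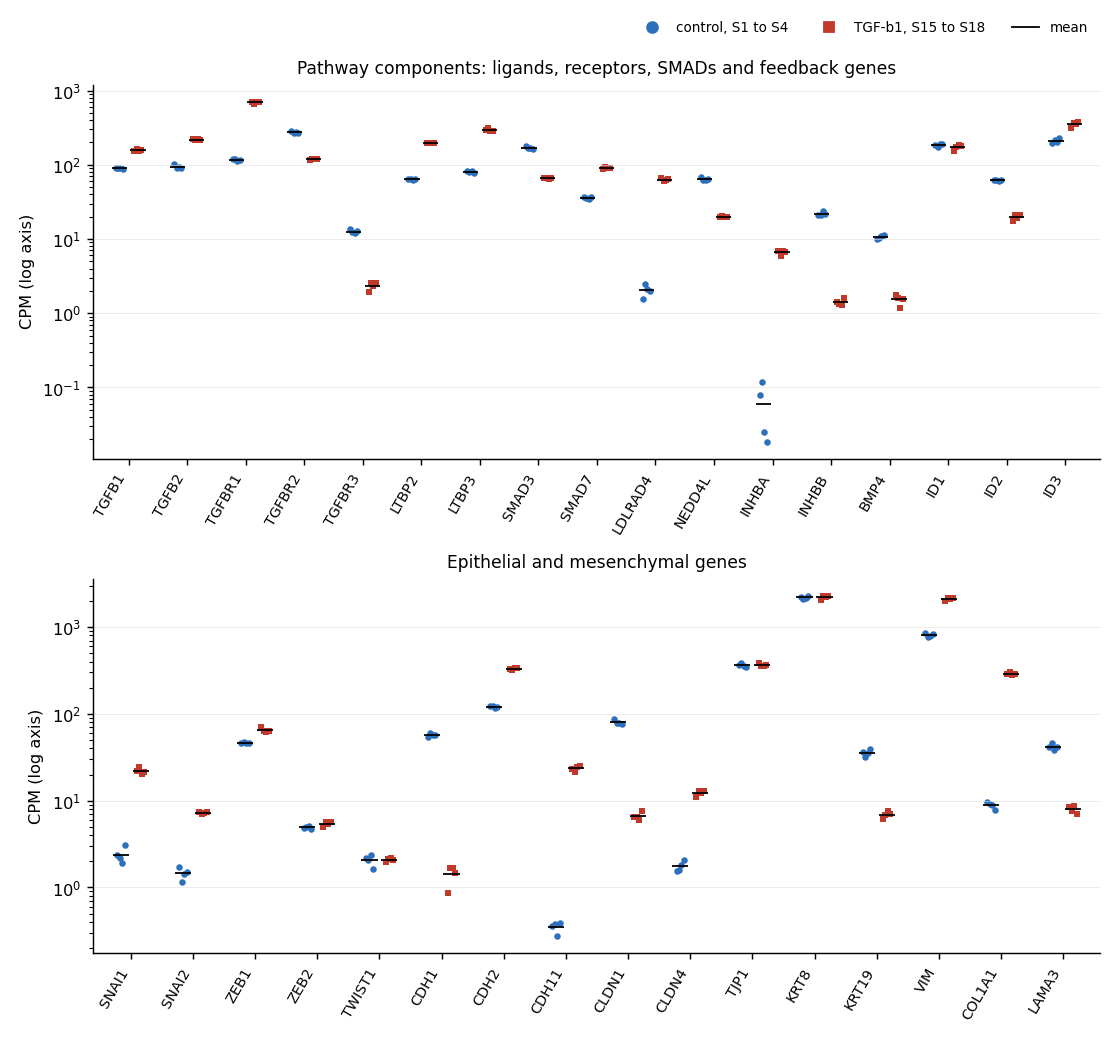
CPM per library on a log axis, with circles for control (S1 to S4), squares for TGF-b1 (S15 to S18) and a line at each mean. The receptor genes TGFBR1 and TGFBR2 and the activin genes INHBA and INHBB moved in opposite directions, and ZEB2, TWIST1, TJP1 and KRT8 did not pass the test.

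Many genes that build matrix rose. Collagen chains had 23 rises and 6 falls among 34 genes tested (median 1.40). COL1A1, a chain of fibrillar type I collagen (ENSG00000108821.13, chromosome 17, 50183289 to 50201632), was at 9.7, 9.12, 8.96 and 7.71 CPM in S1 to S4 and 289.6, 299.7, 280.1 and 289 CPM in S15 to S18. The basement membrane collagen genes COL4A1 (123 ± 5.41 to 1683 ± 37.6 CPM) and COL4A2 (207 ± 8.43 to 1759 ± 69.9 CPM) also rose. Of the other type IV chain genes, COL4A3 and COL4A4 rose (0.96 and 1.76) and COL4A5 and COL4A6 fell (-0.85 and -1.73). These further chains were named after their values were seen. COL12A1, a collagen on the surface of fibrils, was also among the 6 that fell (-1.40). Genes of the enzymes, chaperones and cofactors that hydroxylate, fold, trim and crosslink collagen were higher in 22 of 23 instances and lower in 0, most by small amounts (median 0.64). P4HA3, a prolyl hydroxylase subunit, and LOX, lysyl oxidase, rose by 2.64 and 2.27, and TGM2, tissue transglutaminase, from 537 ± 25.5 to 3172 ± 149 CPM.

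Fibroblast markers moved with these genes. Of 12 markers 9 had a row, 8 rose and 1 (TCF21) fell, and their summed level was 13.7 to 15.7 CPM in control and 297 to 317 CPM with TGF-β1, most of it COL1A1; COL1A2, PRRX1 and POSTN had none. Muscle markers went from 16.6 to 17.9 CPM in control to 46.6 to 52.1 CPM with TGF-β1, with MYOCD, a cofactor of smooth muscle genes, rising from 0.351 ± 0.119 to 18.1 ± 1.62 CPM and 4 of the 5 tested higher; DES, MYOD1, MYOG and ACTA1 had no row. Endothelial markers summed to 0.220 to 0.280 CPM in control and 0.727 to 0.891 CPM with TGF-β1, with PECAM1, CDH5 and VWF without a row. Immune markers summed to 4.17 to 4.68 CPM and 2.36 to 2.82 CPM, 1 higher and 2 lower of 3 tested, with PTPRC without a row. Airway markers summed to 159 to 180 CPM in control and 309 to 352 CPM with TGF-β1, nearly all of it TUBB4B, a tubulin, with SCGB1A1 without a row. Only 1 of the 5 tested was higher and 1 was lower, and TPPP3 averaged 3.63 CPM in control and 0.378 CPM with TGF-β1. Neural markers summed to 132 to 144 CPM and 241 to 269 CPM, most of it TUBB3 with TGF-β1, 4 higher and 1 lower of 5 tested. Cartilage and bone markers summed to 8.18 to 9.57 CPM and 15.9 to 19.0 CPM, 2 higher of 4 tested, with COL2A1 without a row. The part of these cell types in the results was not tested. In bulk RNA a change in the number of cells of a type and a change of RNA per cell cannot be told apart.

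Matrix glycoproteins, proteoglycans and hyaluronan synthases counted 16 rises against 8 falls of 27 (median 0.87). FN1, fibronectin, rose from 391 ± 39 to 1661 ± 46 CPM, SPARC from 6.48 ± 0.654 to 29.6 ± 0.908 CPM and NID1, nidogen, from 7.66 ± 0.908 to 36.8 ± 0.765 CPM. TNC, tenascin C, did not pass (-0.02), and ELN, elastin, and FBN2, a fibrillin, fell (-1.25 and -0.64). Laminin and laminin receptor genes showed the reverse balance, with 9 of 16 laminins and receptors lower and 5 higher. LAMA3, the α3 chain (ENSG00000053747.15, chromosome 18, 23689443 to 23955066), was at 41.9, 46.5, 38.6 and 41.3 CPM in S1 to S4 and 8.43, 7.55, 8.78 and 7.08 CPM in S15 to S18. The groups did not overlap, and the log2 fold change was -2.40 ± 0.07 (edgeR adjusted p = 1.9e-14). LAMB3, which encodes the β3 chain, fell by 0.61 on the log2 scale.

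Matrix proteases, their inhibitors and the receptor gene PLAUR had 21 rises and 2 falls among 26 genes tested, with a median of 2.00. MMP2, gelatinase A, was at 6.34, 7.37, 6.46 and 6.78 CPM in S1 to S4 and 181, 189, 177 and 191 CPM in S15 to S18. TIMP2, its inhibitor and cofactor, was at 84.5, 75.7, 79.4 and 78 CPM in S1 to S4 and 1157, 1159.6, 1064 and 1148 CPM in S15 to S18. Both were higher in every TGF-β1 library. The urokinase gene PLAU and its receptor gene PLAUR rose by 2.04 and 1.08, beside the protease inhibitor gene SERPINE2 (3.66). TIMP3 rose from 0.13 ± 0.038 to 5.11 ± 0.357 CPM, whereas TIMP1 (0.05) and MMP14 (0.24) did not pass. The 2 that fell, MMP7 (-3.58) and MMP24 (-2.02), were named after their values were seen.

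Collagen- and RGD-binding integrins were higher in 8 of 13 instances and lower in 3. ITGA11 and ITGA1, α subunits of collagen receptors, rose (ITGA11 from 9.55 ± 0.99 to 278 ± 6.37 CPM, ITGA1 from 10.9 ± 0.219 to 126 ± 4.99 CPM), while ITGA2, of the same group, did not pass (0.04). The fibronectin receptor gene ITGA5 rose by 1.31. The actin cytoskeleton list counted 24 rises against 3 falls of 28 (median 0.88). TAGLN, transgelin, was at 10.3, 8.02, 10.7 and 10.4 CPM in S1 to S4 and 231, 255, 246 and 266 CPM in S15 to S18. The tropomyosin gene TPM1 rose from 505 ± 9.95 to 2759 ± 31.2 CPM and smoothelin (SMTN) from 17.2 ± 0.844 to 107 ± 7.3 CPM. ACTA2, the smooth muscle actin, rose by 0.84 and stayed low, at 12.6, 11.1, 11.2 and 13.1 CPM in S1 to S4 and 21.2, 22.9, 20.2 and 21.9 CPM in S15 to S18. MYLK, the myosin light chain kinase, and PDLIM5 fell (-1.24 and -2.21).

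Ligands of the EGF receptor family fell or rose by member. Of 12 genes, which are ligands, receptors and the inhibitor genes ERRFI1 and LRIG1, 7 fell and 5 rose (median -1.50). Both inhibitor genes are among the falls, and the ligands and receptors alone were 5 lower and 5 higher. AREG, amphiregulin, was at 58.2, 65.5, 68.7 and 64.6 CPM in S1 to S4 and 0.602, 0.28, 0.31 and 0.477 CPM in S15 to S18. EREG, epiregulin, was at 270.2, 273, 273 and 259.7 CPM in S1 to S4 and 3.95, 4.59, 4.39 and 4.08 CPM in S15 to S18. TGFA fell as well (-1.72), while HBEGF and NRG1 rose (0.95 and 1.17). Among the receptors EGFR rose by 0.56 and ERBB3 fell from 5.53 ± 0.38 to 0.461 ± 0.0703 CPM. ERRFI1, a feedback inhibitor of EGFR, fell from 177 ± 6.31 to 19.4 ± 1.45 CPM. Feedback and response genes of the ERK pathway fell in 14 of 17 cases, among them the phosphatase genes DUSP4, DUSP5 and DUSP6 (-1.79, -1.46 and -1.76). The 3 that rose were IER3 (1.11), EGR1 (0.82) and the cyclin gene CCND1 (0.71). AP-1 subunits and small MAF genes had 5 higher and 4 lower of 11 (45.45% and 36.36%, against 34.1% and 32.8% of all genes). JUNB, JUN and FOSL2 rose (1.44, 1.11 and 0.95), FOSL1 and ATF3 fell (-0.66 and -2.68) and FOS did not pass (-0.39).

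Cytokine genes also separated, and of 11 tested genes of IL-6 family cytokines, their receptors and the signalling genes STAT3 and SOCS3, 6 rose and 4 fell. These were 54.55% and 36.36%, against 34.1% and 32.8% of all genes. STAT3 (0.11) is among the rises, a call it lost with library totals and without S2, S3 or S4, and SOCS3 (-0.17) did not pass. IL11, a cytokine that signals through the shared receptor gp130, was at 62.9, 77.8, 67.8 and 67.1 CPM in S1 to S4 and 576, 646, 650.1 and 634 CPM in S15 to S18. IL6ST, which encodes gp130, was at 569, 645, 603 and 599 CPM in S1 to S4 and 217, 209, 220.1 and 226 CPM in S15 to S18. IL11 was higher and IL6ST lower in every TGF-β1 library. Of the other receptor genes of the list, IL11RA and IL6R rose (0.63 and 0.55) and LIFR and OSMR fell (-0.22 and -0.57). These other receptor genes were named after their values were seen. NF-κB chemokine and feedback genes were lower in 14 of 18 instances and higher in 2 (median -1.46). CXCL5, which draws neutrophils, fell from 312 ± 20.2 to 20.5 ± 0.702 CPM, and PTGS2, the inducible cyclooxygenase, from 117 ± 5.79 to 4.13 ± 0.465 CPM. CCL2, which draws monocytes, rose from 9.95 ± 1.34 to 47.3 ± 3.7 CPM; RELB (0.32) was the other member that rose. The feedback genes NFKBIA (0.01) and TNFAIP3 (-0.26) did not pass.

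Proteins of epithelial and liver type, secreted except for MUC13 and CPS1, had the lowest median of the 41 lists (-4.03), with 15 of 16 members lower and 1 higher. AGR2, a disulfide isomerase that mucins need for folding, was at 279.7, 302, 302 and 291 CPM in S1 to S4 and 1.33, 1.73, 1.61 and 1.57 CPM in S15 to S18. The mucin genes MUC5AC (11 ± 2.94 to 0.0733 ± 0.0808 CPM) and MUC5B (25.5 ± 4.74 to 0.295 ± 0.0827 CPM) fell. The 3 fibrinogen chain genes fell together, FGA from 69.5 ± 1.76 to 0.575 ± 0.0889 CPM, FGB from 56.6 ± 2.59 to 4.85 ± 0.299 CPM and FGG from 36.2 ± 1.96 to 0.706 ± 0.09 CPM. C3, the central complement protein, fell by 2.55 on the log2 scale. SERPINA1, α1-antitrypsin, was the 1 that rose (0.74), under 1 CPM in both groups, and it lost its call without S1 or without S15.

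Growth factors for other cells, listed with IGF binding proteins and the receptor gene IGF1R, had 17 rises and 4 falls among 23 genes tested (median 0.79). The falls were PDGFD (-1.42), IGFBP1 (-2.29), IGFBP4 (-0.25) and IGFBP6 (-1.86), named to complete the count. PDGFB rose from 9.13 ± 0.617 to 50.1 ± 2.05 CPM, IGFBP7 from 55.6 ± 2.14 to 381 ± 8.79 CPM and the insulin-like growth factor family gene IGFL1 from 0.213 ± 0.0961 to 21.4 ± 0.772 CPM, while VEGFC did not pass (0.06). Wnt pathway genes were higher in 14 of 22 instances and lower in 8. The ligand gene WNT5B was at 0.34, 0.319, 0.599 and 0.275 CPM in S1 to S4 and 45.1, 49.4, 49.8 and 48.9 CPM in S15 to S18. WNT5A rose as well (2.04), and WNT7B fell (-1.52). The antagonist gene DKK1 (113 ± 5.76 to 10.1 ± 0.783 CPM) and the receptor-removing ligase gene RNF43 (14.6 ± 0.786 to 1.22 ± 0.22 CPM) fell, and AXIN2, a common target of β-catenin, rose by 0.25. In the Notch pathway 7 of 13 genes rose and 4 fell (53.85% and 30.77%, against 34.1% and 32.8% of all genes). The rises included the ligand gene JAG1 (0.80), LFNG (2.86), a glycosyltransferase of the receptor, and NOTCH2 (0.85). NOTCH1 and NOTCH3 fell (-0.69 and -0.70), as did JAG2 (-0.44) and HEYL (-0.73), named to complete the count.

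The YAP/TAZ list gave equal counts, 9 higher and 9 lower of 18, with members far apart. CTGF, a matricellular protein of this pathway and of TGF-β, was at 15.2, 12.6, 14.1 and 13 CPM in S1 to S4 and 146, 147, 155 and 152 CPM in S15 to S18. ANKRD1, another common readout of the pathway, was at 16.7, 13.4, 16.3 and 14.4 CPM in S1 to S4 and 0.723, 0.42, 0.503 and 0.334 CPM in S15 to S18. The genes had log2 fold changes of 3.45 ± 0.053 and -4.92 ± 0.14 (edgeR adjusted p = 5.7e-18 and 1.5e-14). AMOTL2, AJUBA and AXL fell (-2.07, -2.36 and -0.86) and the tissue factor gene F3 and the ectonucleotidase gene NT5E rose (3.33 and 2.59).

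GGAATG, the element of the TEAD factors that carry YAP and TAZ, occurs on either strand in 11.9% of all promoters, in 13.1% of the tested genes matched and in 8 of the 13 members of this list with an entry. CTGF, with 3 matches, and ANKRD1, with 2, are shown because they moved in opposite directions; the matches are in capitals (CTGF chr6:131951373-131951622, minus strand; ANKRD1 chr10:90921088-90921337, minus strand):
CTGF: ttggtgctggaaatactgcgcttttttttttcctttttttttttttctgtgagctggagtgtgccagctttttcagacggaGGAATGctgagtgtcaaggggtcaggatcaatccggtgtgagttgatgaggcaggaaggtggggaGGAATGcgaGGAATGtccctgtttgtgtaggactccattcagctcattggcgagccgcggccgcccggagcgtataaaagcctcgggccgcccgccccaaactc
ANKRD1: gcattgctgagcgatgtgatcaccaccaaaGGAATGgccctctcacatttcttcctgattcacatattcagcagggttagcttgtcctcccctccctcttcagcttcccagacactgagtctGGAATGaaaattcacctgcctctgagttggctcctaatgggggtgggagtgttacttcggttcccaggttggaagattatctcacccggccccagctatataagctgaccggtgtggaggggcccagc
In CTGF the matches began 169, 104 and 95 bases before the start.

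NRF2 targets, most of which encode enzymes of glutathione, thioredoxin, NADPH and carbonyl metabolism, counted 29 falls against 1 rise of 30 (median -1.54). GPX2, a glutathione peroxidase (ENSG00000176153.11, chromosome 14, 64939152 to 64942905), was at 205, 202, 207 and 222 CPM in S1 to S4 and 3.61, 3.55, 4.08 and 3.86 CPM in S15 to S18. AKR1B10, a carbonyl reductase, was at 3408, 3319, 3389 and 3502 CPM in S1 to S4 and 251, 269.9, 263 and 272 CPM in S15 to S18. PGD, which makes NADPH in the pentose phosphate pathway, fell from 854 ± 24.1 to 291 ± 11.9 CPM. The cystine importer gene SLC7A11 fell from 948 ± 60.1 to 231 ± 14 CPM and NQO1 from 1619.5 ± 47.5 to 795 ± 23.6 CPM. HMOX1, heme oxygenase, was the 1 that rose, at 71.1, 72.8, 70.8 and 73.3 CPM in S1 to S4 and 90.8, 101, 90.9 and 102 CPM in S15 to S18. Its control and TGF-β1 libraries did not overlap, although the change was small (log2 fold change 0.42 ± 0.043, edgeR adjusted p = 2.3e-07). AKR1B10 and the AKR1C genes have near-identical relatives, so reads may be shared among them.

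The core of the antioxidant element, TGACNNNGC, lies on either strand of 10.9% of all promoters, of 15.4% of the tested genes matched and of 7 of the 20 NRF2 targets with an entry. GPX2 and GCLM, a subunit of the enzyme that makes glutathione's precursor, are shown as members that fell (-5.78 and -1.56); both lie on the minus strand and the match is in capitals (GPX2 chr14:64942746-64942995, minus strand; GCLM chr1:93909431-93909680, minus strand):
GPX2: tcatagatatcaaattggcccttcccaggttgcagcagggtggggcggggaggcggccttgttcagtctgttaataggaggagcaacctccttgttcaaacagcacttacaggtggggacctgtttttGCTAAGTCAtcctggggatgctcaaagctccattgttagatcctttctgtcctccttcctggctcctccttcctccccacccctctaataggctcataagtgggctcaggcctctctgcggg
GCLM: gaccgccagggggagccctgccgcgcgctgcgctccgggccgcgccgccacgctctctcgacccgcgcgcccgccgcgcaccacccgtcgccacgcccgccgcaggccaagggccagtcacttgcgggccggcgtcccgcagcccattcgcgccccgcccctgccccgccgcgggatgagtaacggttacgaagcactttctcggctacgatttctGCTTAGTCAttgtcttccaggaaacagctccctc
Over all genes the element was in 11.6% of promoters of genes that rose and 11.9% of those that fell.

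Enzymes and transporters for foreign compounds and retinoids had 15 falls and 4 rises among 22 genes tested. The cytochrome P450 genes CYP4F3, CYP4F11 and CYP1B1 fell by 6.05, 4.71 and 3.62 on the log2 scale, and the efflux pump gene ABCG2 from 41.1 ± 3.16 to 3.95 ± 0.195 CPM. ALDH1A1, the most abundant member, rose from 8715 ± 288 to 13514 ± 288 CPM. CYP24A1, the vitamin D hydroxylase, did not pass in edgeR (-0.08) and passed in DESeq2 and limma-voom.

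ATF4 and its targets, which serve amino acid supply and the integrated stress response, fell in 28 of 30 cases, rose in 1 and had a median of -1.67. ASNS, asparagine synthetase (ENSG00000070669.16, chromosome 7, 97852118 to 97872542), was at 234, 247, 256 and 246 CPM in S1 to S4 and 33.8, 35.5, 42.7 and 36.1 CPM in S15 to S18. The serine synthesis genes PHGDH, PSAT1 and PSPH also fell, by 1.86, 2.41 and 1.39 on the log2 scale, and MTHFD2, of mitochondrial folate metabolism, by 1.82. SLC7A5, a transporter of large amino acids, was the 1 that rose (0.14), and it lost its call with library totals. ATF5 did not pass (0.03).

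One library stood apart within this list. CHAC1, which degrades glutathione, was at 20.8, 23.3, 22.7 and 24.1 CPM in S1 to S4 and 0.675, 0.895, 7.76 and 0.93 CPM in S15 to S18. STC2, a secreted glycoprotein, was at 191, 199, 200.04 and 187 CPM in S1 to S4 and 4.84, 5.03, 10.1 and 5.03 CPM in S15 to S18. TRIB3, a pseudokinase that ATF4 induces, was at 582, 699, 645 and 659 CPM in S1 to S4 and 26.8, 27.1, 33.7 and 27.2 CPM in S15 to S18. S17 was the highest TGF-β1 library for each, and also for DDIT3, DDIT4 and MTHFD2 of the same list, and it was still below every control library. Without S17 the log2 fold changes were -4.77 for CHAC1 (with it -3.01), -5.29 for STC2 (with it -4.92) and -4.58 for TRIB3 (with it -4.49).

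**Figure D4:**
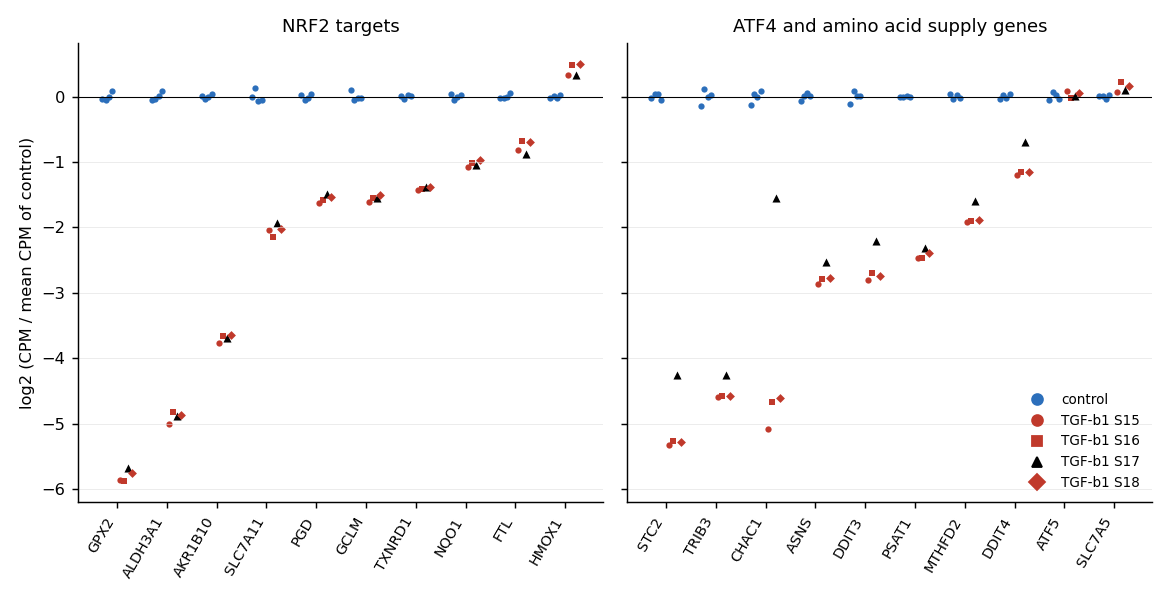
Level in each library relative to the mean of the control libraries (y axis, log2 of the CPM ratio) for 10 NRF2 targets and 10 ATF4 genes, with control as blue circles and S17 as black triangles. TGF-b1 libraries lay below control for all genes drawn except HMOX1, ATF5 and SLC7A5, and among the ATF4 genes S17 lay above the other TGF-b1 libraries for CHAC1, STC2, TRIB3, ASNS, DDIT3, PSAT1, MTHFD2 and DDIT4.

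TGATGNAA, the core of the CCAAT/enhancer and ATF composite element that ATF4 binds, occurs on either strand in 3.14% of all promoters, in 2.57% of the tested genes matched, in 5 of 26 ATF4 genes with an entry (ASNS, CEBPG, CHAC1, JDP2 and SLC1A5) and in 3 of 16 tRNA synthetase genes (AARS, GARS and IARS). ASNS and CHAC1 are shown, with the match in capitals (ASNS chr7:97872409-97872658, minus strand; CHAC1 chr15:40953221-40953470, plus strand, where the match reads as its reverse complement):
ASNS: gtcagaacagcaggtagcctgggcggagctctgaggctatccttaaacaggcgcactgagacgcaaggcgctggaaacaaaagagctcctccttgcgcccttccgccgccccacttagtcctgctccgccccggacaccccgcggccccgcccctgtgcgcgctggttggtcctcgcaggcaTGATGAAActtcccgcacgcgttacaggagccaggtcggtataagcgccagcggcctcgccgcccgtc
CHAC1: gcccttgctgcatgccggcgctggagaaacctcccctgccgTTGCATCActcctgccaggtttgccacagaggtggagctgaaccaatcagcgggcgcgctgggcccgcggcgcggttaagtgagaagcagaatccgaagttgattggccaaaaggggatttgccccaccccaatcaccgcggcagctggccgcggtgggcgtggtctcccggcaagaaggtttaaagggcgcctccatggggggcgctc
Both genes fell, as did CEBPG, JDP2 and SLC1A5.

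Cytosolic tRNA synthetases, which charge tRNAs with amino acids, fell in 16 of 20 cases (median -0.53). AARS, MARS, GARS and YARS fell by 1.54, 1.42, 1.30 and 1.29 on the log2 scale. The 4 that rose, named to complete the count, were QARS, RARS, HARS and KARS, by 0.60, 0.48, 0.32 and 0.23.

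Lipid and glucose genes had no common direction. Of 28 lipid genes 11 rose and 11 fell (39.3% each, against 34.1% and 32.8% of all genes). PDK4, which blocks pyruvate entry to the mitochondrion, was at 37.4, 37, 37 and 38 CPM in S1 to S4 and 0.626, 0.587, 0.813 and 0.644 CPM in S15 to S18. The coactivator gene PPARGC1A and the carnitine transferase gene CPT1A fell by 2.65 and 1.43, while ACLY, which makes acetyl-CoA from citrate, SCD, a desaturase, and INSIG1, which restrains sterol synthesis, rose by 1.09, 0.83 and 2.42. Of 26 glucose genes 8 rose and 10 fell (30.8% and 38.5%), close to the shares over all genes (34.1% and 32.8%). The transporter genes differed: SLC2A1 fell by 0.32 on the log2 scale, SLC2A3 rose by 1.16 and SLC2A12 rose from 1.98 ± 0.222 to 26.4 ± 1.68 CPM. LDHA did not pass (0.08).

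Replication and mitosis genes counted 28 rises against 3 falls of 34, by small amounts (median 0.43). The flap endonuclease gene FEN1 and the clamp gene PCNA rose by 1.52 and 0.83, and the mitotic genes CCNB1 and BUB1 by 0.43 and 0.64. Those that fell were ECT2 (-0.99), CDC45 (-0.16) and MKI67 (-0.19), and the call of MKI67 was lost in DESeq2, in a fit of all 12 libraries and without S2, S16, S17 or S18. TOP2A did not pass (0.07). In the cyclin and inhibitor list 9 of 21 rose and 6 fell (42.9% and 28.6%, against 34.1% and 32.8% of all genes). CCNE1, CDK2 and the inhibitor gene CDKN2C rose by 0.95, 0.80 and 0.94, and CDKN1A, p21, fell by 0.18 on the log2 scale.

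Interferon response and antigen presentation genes were lower in 16 of 30 instances and higher in 10 (53.3% and 33.3%, against 32.8% and 34.1% of all genes). The immunoproteasome gene PSMB8 and the peptide pump gene TAP1 fell by 1.26 and 0.58 on the log2 scale. The class I genes HLA-B and HLA-C, which are similar enough to share reads, rose by 0.75 and 0.77. Folding and secretory pathway genes had 18 rises and 6 falls among 27 genes tested; the chaperone genes CALR and HSPA5 rose by 1.00 and 0.42, and the stress sensor gene ERN1 and its target XBP1 fell by 2.42 and 1.22 on the log2 scale. CREB3L1, a membrane-bound factor of collagen-secreting cells, rose from 0.279 ± 0.0164 to 1.43 ± 0.234 CPM.

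Axon guidance genes, which also steer epithelial and vascular cells, were evenly split, 13 higher and 12 lower of 25. These were 52.0% and 48.0%, against 34.1% and 32.8% of all genes. SEMA7A rose from 0.218 ± 0.0501 to 10.04 ± 0.369 CPM and SEMA3C from 373 ± 6.26 to 1234 ± 21.4 CPM. The neuropilin genes, co-receptors of semaphorins, moved apart, NRP2 rising by 1.30 and NRP1 falling (-0.84). The receptor gene EPHB2 and the ligand gene EFNB2 rose by 2.34 and 2.08, and NTN4, a netrin, fell from 58.5 ± 2.44 to 10.1 ± 0.542 CPM. HOX genes, which set position along the body, gave 10 higher and 9 lower of 29, close to the shares over all genes; HOXD10 and HOXA13 rose by 1.44 and 0.87, and HOXB9 fell by 0.65 on the log2 scale. Over the 41 lists, 834 distinct members were tested, of which 385 rose, 351 fell and 98 did not pass. Of all genes tested, 34.1% rose and 32.8% fell. The members were chosen with earlier results of these data known, so the pooled counts are no result about the lists.

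Among long noncoding RNA genes at or above the median level that overlap no coding gene, the 5 largest rises held MEG3, an imprinted transcript, and LINC00152, and the 5 largest falls held SNHG15, a host of small nucleolar RNAs. MEG3 rose from 13.9 ± 1.97 to 86.8 ± 7.62 CPM, LINC00152, which has a near-identical copy and so an uncertain level, rose from 21 ± 0.802 to 54 ± 1.01 CPM, and SNHG15 fell from 54.2 ± 2.56 to 23.2 ± 0.555 CPM.

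The make-up of the libraries was compared by shares of counts. Cytosolic ribosomal protein genes took 4.12 ± 0.0277% of counts in control and 4.68 ± 0.0739% with TGF-β1, without overlap (exact permutation test over the 4 and 4 libraries, two-sided p = 0.0286, the smallest it can give; 0.0857 after Benjamini-Hochberg adjustment over 6 shares). The 100 largest genes took 22.4 ± 0.957% and 24.7 ± 0.690% (same p and adjusted p). With only 2 of 6 shares free of overlap, the smallest p the design gives does not pass that adjustment. Over protein-coding counts alone, only 3 shares were tested, in place of 6, and all 3 passed (exact permutation test, adjusted p = 0.0286). Those of the ribosomal protein, 10 largest and 100 largest genes were higher with TGF-β1 by 0.612, 2.06 and 3.50 percentage points. The shares of protein-coding genes (85.1 ± 1.12% and 85.8 ± 0.619%) and small RNA genes (7.14 ± 0.823% and 6.54 ± 0.482%) overlapped between the groups.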

How the data were processed

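RNA of A549 cells was measured as raw counts per gene in 4 control and 4 TGF-β1 libraries, deposited by the authors in 1 table of 24459 genes; the submitters' processing notes name bcl2fastq, HISAT2, limma and hg38, while versions, counter and strand setting were not given in the sources used here. Unstranded counting would make overlapping genes share reads, and near-identical copies cannot be told apart. The authors' deposited log2 fold change had the same sign as the one computed here in 99.1% of 22051 genes. Count columns were placed by the tables that hold them (4 identical columns stand in both tables); a further 32 columns per sample were not used. No 2 libraries of a group agreed within sampling noise (chi-square per degree of freedom 3.95 to 17.1).

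Counts were tested in R 4.3.3 with edgeR 4.0.16 (filterByExpr with minimum count 10 and total 15, TMM factors, quasi-likelihood test, glmTreat against 2-fold, two-sided, Benjamini-Hochberg over 22051 genes, threshold 0.05), fitted on the 8 libraries. Only the edgeR fit was tested on simulated counts. Few genes changed in that simulation, so it does not cover a change of most genes or the other steps. Levels are CPM with TMM-scaled totals; TPM divides counts by exon length in GENCODE release 29, to which 99.1% of genes matched. SDs are over 4 libraries. Alternatives were DESeq2 1.42.0, limma-voom (limma 3.58.1), other scaling, other filters, all 12 libraries in 1 fit and each library left out.

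The members of the 41 lists, the lists and the tests were chosen with earlier results of these data known. Named genes were core and smallest-p list members (4 in each list), the 10 largest changes each way at or above the median level without overlap, the 8 largest TPM changes each way, 5 long noncoding RNAs each way and genes at or under 3 counts in 1 group; others are said to be named after their values were seen, or complete a count of 5 or fewer, or are markers, motif matches or MYOCD. Some genes this rule names are not reported here. Of the 5 motifs of the promoter search, GTCTAGAC, the SMAD palindrome, was in 0.182% of all promoters, 0.315% of those of genes higher beyond 2-fold and 0.238% of those lower. A further 3 motifs were looked at and are not reported, and the promoters shown were chosen after their matches and fold changes were seen.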

Additional observations from a re-analysis of the deposited data

Results flagged for a closer look

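Within the groups of 4 libraries, 52 of 616 sets of values (8.44%) had 1 library whose gap to the nearest other was above Dixon's 95% critical value for 4 samples; chance gives about 1 in 20. S17 was the library set apart in 11 of them, S2 in 12, S15 in 10 and S18 in 0. Levels are CPM, with the range of the other 3 libraries in brackets. No cause was tested for any of these.

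S17 was high among the TGF-β1 libraries for 7 members of the ATF4 list, with CHAC1 7.76 (0.675 to 0.93), DDIT3 14.6 (9.69 to 10.4), DDIT4 229.6 (162 to 168), JDP2 16.2 (10.5 to 11.3), MTHFD2 145 (115 to 118), STC2 10.1 (4.84 to 5.03) and TRIB3 33.7 (26.8 to 27.2). Every one of these S17 values was still below all 4 control libraries. S17 was also high for MUC5AC 0.193 (0.0241 to 0.0477) and XBP1 72.1 (63.8 to 64.2), and low for DKK1 8.94 (10.5 in each) and TIMP2 1064 (1148 to 1159.6).

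Among the control libraries S2 was high for AARS 520.4 (503 in each), COL12A1 40.2 (29.3 to 30.6), FBN2 139.5 (95.7 to 102), FN1 449.6 (370.1 to 374) and ITGA2 95.5 (83.1 to 84.4), and was low for BUB1 64.7 (68 to 68.4), CYP24A1 1465 (1509 to 1517), FOXA2 37.1 (40.5 to 41.2), KARS 164 (177 to 178), PKP2 22.2 (23.6 to 23.9), TAGLN 8.02 (10.3 to 10.7) and TSC22D1 127 (132 in each). For FN1, FBN2 and COL12A1, genes of matrix proteins, S2 was above the other control libraries, and for the contractile gene TAGLN below them. Control library S1 was high for CLDN1 86.4 (77.3 to 78.5), FOSL2 159.5 (141 to 142), NRG1 368 (331 to 335), SERPINE2 50.5 (46.6 to 47) and WNT7B 24.4 (22 to 22.3). Control library S3 was high for INHBB 23.6 (21.3 to 21.6) and MEDAG 0.0499 (0 in each), and was low for EPHB2 76.7 (79.5 to 79.9) and IGFBP4 349 (367 in each). Control library S4 was high for FTL 6110.3 (5772 to 5820.4), LCE3D 0.0367 (0 in each) and PLAUR 19.1 (18.5 to 18.6), and was low for NRP1 260.2 (265 in each), SOX2 13.6 (14.6 to 14.7) and VEGFC 6.06 (7.34 to 7.41). TGF-β1 library S15 was high for HNF4G 2.07 (1.34 to 1.45), IGF1R 219 (197 to 198) and NRG1 813 (751 to 753), and was low for FSTL3 237 (264 to 269), JUNB 216 (240.2 to 243), SLC1A5 143 (153 to 155) and TMSB10 1098 (1208 to 1224). TGF-β1 library S16 was high for SERPINE2 614 (602 to 603) and SOX4 295 (289 in each), and was low for INHBA 5.82 (6.77 to 6.94) and PATJ 33.2 (37.1 to 37.4). By share of counts S15 was low for long noncoding genes (6.18% against 6.51 to 6.58 of the others), the 10 largest genes (9.44% against 10.5 in each of the others) and the 100 largest genes (23.7% against 25 to 25.2 of the others).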

How the results depend on the processing

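Counts of genes changed stayed within 1.5 times in every alternative run. Genes higher ran from 6078 (library totals) to 7815 (no filter), and genes lower from 6582 (at least 1 CPM in 4 libraries) to 8676 (library totals); beyond 2-fold they ran from 1047 to 1479 higher and from 1080 to 1517 lower. With library totals 6078 of the 7518 higher calls and 7224 of the 7224 lower calls were shared with the calls reported. DESeq2 shared 7083 and 7079 of them, and limma-voom, which was not run against 2-fold, 7466 and 7153. Leaving out 1 library gave 6983 to 7544 higher and 7027 to 7474 lower.

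List counts moved by over 1.5 times in few cases. With at least 1 CPM in 4 libraries, which tests fewer genes, 1 epithelial regulator and 0 epithelial and acute-phase proteins were higher. ATF4 genes had 0 higher with library totals. Without single libraries, EMT factors had 1 to 2 lower (1 without S15 or S17) and epithelial and acute-phase proteins had 0 to 1 higher (0 without S1 or S15). The shares of the ribosomal protein, 10 largest and 100 largest genes differed by 0.612, 2.06 and 3.50 percentage points over protein-coding counts alone, where all 3 passed (exact permutation test, adjusted p = 0.0286 over 3 shares in place of 6). Over all counts these 3 differences did not pass in the same test over 6 shares (adjusted p = 0.0857, 0.309 and 0.0857). With 1 library left out, these differences over all counts were 0.538 to 0.593, 0.394 to 1.07 and 1.91 to 2.68 percentage points. Only their size is given, because with 3 against 4 libraries that test has little room to pass after adjustment.

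Of the genes described as not passing, CYP24A1 passed in DESeq2 (-0.09), limma-voom and most other alternatives, SOCS3 in DESeq2 and 8 others, IGF1R without S2, FOS, TNFAIP3 and ID1 with library totals and without 1 or more single libraries, KRT8 with library totals (-0.11), ABCA3 without S15, and LDHA and TOP2A in limma-voom. Of those described as changed, only MKI67, NECTIN1, SERPINA1, SLC7A5 and STAT3 lost a call, among the named genes and alternatives run; none reversed. No paired analysis was possible because the count columns carry no replicate numbers, although the labels number the samples 1 to 4 in each group. The floor of 3 counts limits low genes such as INHBA in control.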
